A study of Epimedium pubescens with 27 samples.

Results

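The subject is glycosyl hydrolase family 1 (GH1), the family of the plant beta-glucosidases, in leaves of Epimedium pubescens, a herb of the barberry family used in medicine. Members were the genes whose deposited description carries the Pfam domain PF00232, and the rule found 76 of the 58645 genes in the table. Of these, 59 came from the published annotation (names beginning Ebr) and 17 were assembled by the authors from the reads. The assembled members are identified below by their match and position, and the plots carry their deposited IDs. Leaf RNA was sequenced from seedlings grown in sand and perlite, which shared a recovery period on dilute nutrient solution and then received nitrate at 0 mM (LN, nitrogen deficiency), 7.5 mM (MN, moderate nitrogen) or 22.5 mM (HN, excess nitrogen). By the methods, sodium nitrate was added to reach the nitrate targets, and calcium chloride and potassium sulfate to balance the ions. Other ions may therefore differ between the treatments, and their part was not tested. Leaves were taken 24 days (S1), 36 days (S2) and 48 days (S3) after the treatments began. Each of the 9 combinations has 3 libraries, here called A, B and C as in the sample titles, which makes 27. The methods call them biological replicates without saying how many of the seedlings went into one, so the p-values below measure the spread between these libraries.

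GH1 enzymes cleave the bond between a sugar, usually glucose, and the compound that carries it. In plants the family is known for releasing stored glycosides at need: defence compounds, hormone conjugates, lignin precursors kept as glucosides, and short sugars of the cell wall. A few relatives have turned to transferring a sugar instead, and the chloroplast member SFR2 remodels galactolipids of the chloroplast envelope in Arabidopsis during freezing.

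Between 13609959 and 18482851 reads per library were counted on genes, and GH1 genes took from 0.0843% to 0.304% of them. The labelled tissue was checked on marker genes. The summed level of 103 leaf genes (Rubisco small subunit, chlorophyll a-b binding and photosystem II proteins) ranged from 33340 to 93050 FPKM (fragments per kilobase of gene, scaled to library size), while 4 floral genes summed to 21.1 to 49.4 FPKM and 3 Casparian strip genes of the root, 2 of them without any read, to 0 to 0.692 FPKM. In the 9 pairwise comparisons edgeR called 4 leaf genes, all of them lower, with 1 to 40 of the 65 to 68 tested at an unadjusted p below 0.05 (DESeq2 called up to 24 lower and up to 4 higher per comparison), and 0 of the 3 or 4 floral genes tested, with at most 2 of those at an unadjusted p below 0.05 and at most 1 called by DESeq2; no root gene had enough reads. In several groups a pair of libraries lay closer to each other than to the remaining one. The median absolute log2 ratio over 11273 genes was 0.142 between HN S3 A and B, against 0.353 and 0.368 between these and HN S3 C, and between libraries of different groups the smallest such value was 0.265. For this reason the level in each library is given below wherever a result turns on it.

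By the Swiss-Prot protein that their description names, 53 members matched numbered beta-glucosidases of rice or Arabidopsis, and 15 matched furostanol glycoside 26-O-beta-glucosidase of Hellenia speciosa, which in that plant removes the glucose at carbon 26 of furostanol saponins. Another 2 matched raucaffricine glucosidase of Rauvolfia serpentina, an enzyme of indole alkaloid metabolism. Single members matched SFR2 of rice (Ebr02G005060), coniferin beta-glucosidase of lodgepole pine, which frees a lignin precursor (an assembled gene on chromosome 1, 492580780 to 492581378, plus strand), and an acyl-glucose dependent anthocyanin glucosyltransferase of Delphinium (Ebr01G005770). The other 3 (Ebr04G015830, Ebr04G048670 and Ebr06G040040) matched the probable inactive purple acid phosphatase 27 of Arabidopsis and carry a prolyl oligopeptidase domain beside the GH1 domain, so their descriptions go against the name beta-glucosidase. No member matched a cyanogenic glucosidase or a myrosinase. A match is the nearest protein in that database, not a measured activity.

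Chromosome 3 holds 26 members, chromosome 1 holds 20, chromosome 6 holds 14, chromosome 4 holds 9, chromosomes 2 and 5 hold 3 each, and 1 lies on an unplaced contig. Taking neighbours with a gap of at most 500 kb as one locus, 53 members fell into 16 loci and 23 stood alone. Members of one locus were often far apart in level. On chromosome 3 (551689095 to 552225523 in the coordinates of the count table, on a published E. pubescens genome whose version is not named) Ebr03G066950 averaged 261 FPKM over the 27 libraries, whereas its 3 neighbours averaged between 0.0262 and 0.116 FPKM. All 6 members of a locus on chromosome 6 (202920689 to 203654837) matched rice beta-glucosidase 12 and averaged at most 0.043 FPKM, and 3 of them had no read in any library. Neighbouring or recent copies can share reads, and no source used here says how the counting treated such reads.

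Few members accounted for most of the GH1 message in these leaves. No read was counted for 9 members in any library, 22 had at least 1 read in every library, 30 averaged at least 1 FPKM and 14 at least 10 FPKM. The 8 highest held 81.3% of the summed mean level of 1087 FPKM, and Ebr03G066950 alone held 24.0%. By FPKM it was the highest GH1 gene in 14 of the 27 libraries, followed by Ebr01G008980 in 6, Ebr03G017910 and Ebr04G050990 in 3 each and Ebr01G008900 in 1. By match, the 53 numbered beta-glucosidases summed to 671 FPKM, the 15 furostanol glucosidases to 200.5 FPKM, of which 96.3 came from Ebr04G050990 and 73.9 from Ebr01G008860, and the 2 raucaffricine glucosidases to 182 FPKM, nearly all from Ebr01G008980. Ebr01G008980 and Ebr01G008960 are modelled as only 630 and 420 bases, against a median of 1543.5 bases for the family, and 14 members are under 700 bases. FPKM divides by this length, so the rank of Ebr01G008980 and the raucaffricine sum depend on its short model. In each of the 6 libraries where it led by FPKM, another member had more reads. In MN S1 C it had 10077 reads and Ebr01G008900 had 13125.

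**Figure D1:**
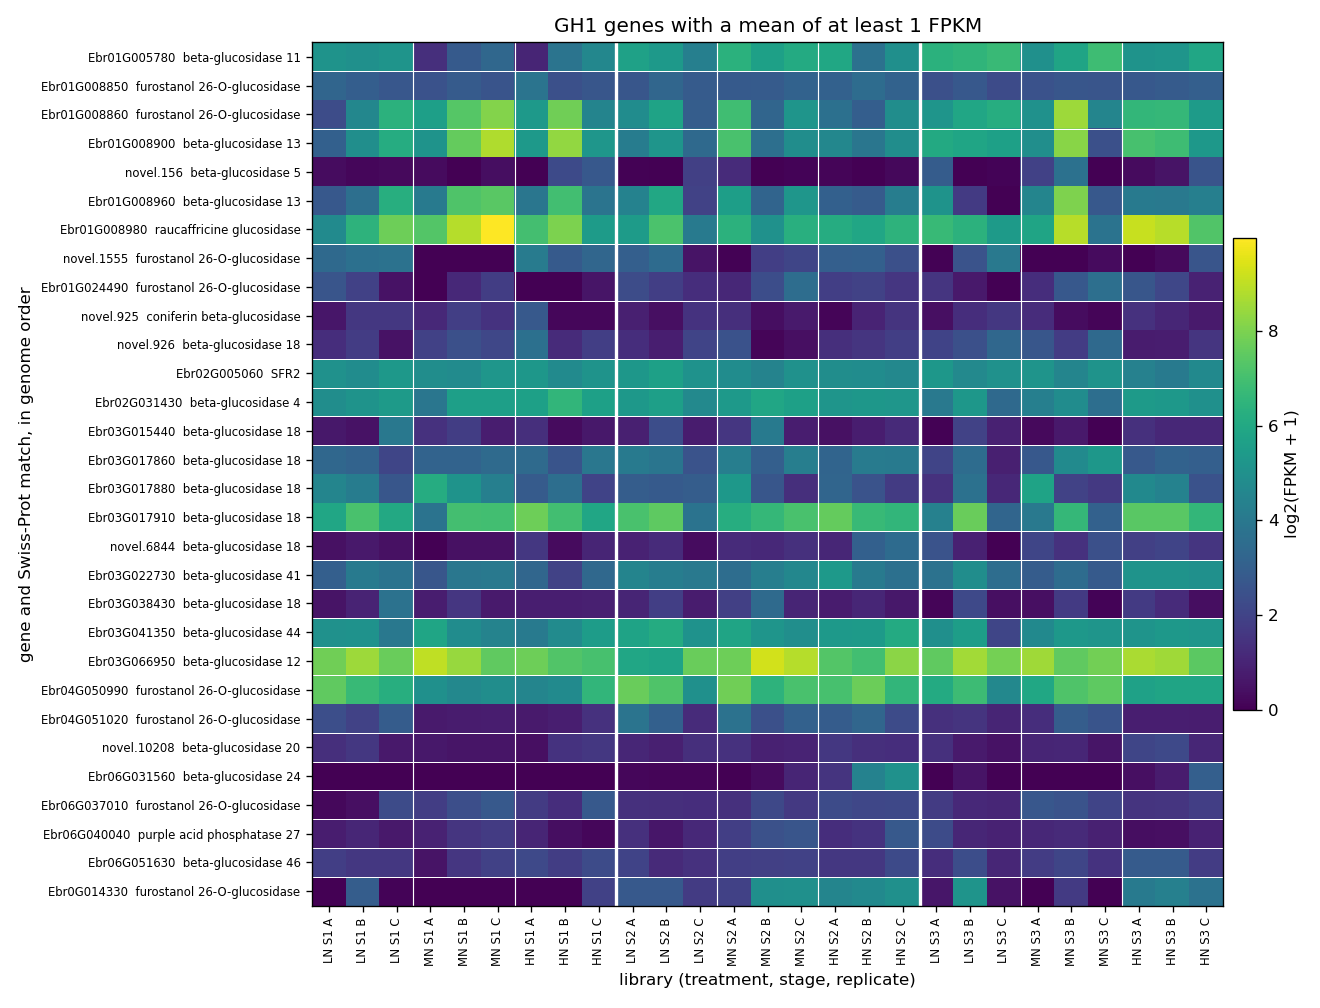
Level of the 30 GH1 genes with a mean of at least 1 FPKM (rows, in genome order, each with its Swiss-Prot match) in the 27 libraries (columns), coloured by log2(FPKM + 1); thin white lines part groups and loci and thick ones part stages. SFR2 (Ebr02G005060) is even across the row, whereas the neighbours Ebr01G008860, Ebr01G008900, Ebr01G008960 and Ebr01G008980 brighten in the same few libraries. The assembled furostanol glucosidase gene is dark in all 3 MN S1 and all 3 MN S3 libraries. It is also dark in MN S2 A, LN S3 A, HN S3 A and HN S3 B.

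Across treatments and stages, GH1 genes did not move as a block. In the 9 pairwise comparisons the median log2 fold change of the tested members lay between -0.26 (HN vs MN at S3) and 0.15 (S3 vs S1 in HN), against medians between -0.03 and 0.03 for all tested genes, and in none of the 9 did more than 18 of the tested members lie on the higher side or more than 19 on the lower. Calls were made with the quasi-likelihood test of edgeR, at an adjusted p (Benjamini-Hochberg) below 0.05 and a change of 2-fold or more, and 28 to 33 members had enough reads to be tested. Since a gene can pass that filter only through the group where it is high, counts over the tested members are a description. With 3 libraries against 3, no exact permutation test can go below p = 0.10, so the calls rest on the model across all genes. In RNA of whole leaves, fewer cells of a type and less RNA per cell cannot be told apart.

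At S1, edgeR called the assembled furostanol glucosidase gene described below in LN vs MN, 1 of 28 tested members (3.57%, against 0.00918% of all tested genes), and 6 members reached an unadjusted p below 0.05 (21.4%, against 8.64%). DESeq2, the tool of the study, called 4 of 38 members there (10.5%, against 3.03%), and the FPKM of the LN and MN libraries did not overlap for 6 members (21.4%, against 15.8%). In HN vs MN at S1 edgeR again called that gene, 1 of 31 members (3.23%, against 0.111%), 4 had an unadjusted p below 0.05 (12.9%, against 9.31%), DESeq2 called 2 of 34 (5.88%, against 3.88%), and 4 did not overlap (12.9%, against 15.3%). Both comparisons share the 3 MN libraries, and the gene was of interest from earlier results of these data, so its calls are not independent support. The other shares, which include that gene, all lay above the background in LN vs MN and on both sides of it in HN vs MN.

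At S2, edgeR called 0 of 31 members in LN vs MN (background 0%), 4 had an unadjusted p below 0.05 (12.9%, against 13.3%), DESeq2 called 1 of 40 (2.5%, against 4.04%), and 3 did not overlap (9.68%, against 22.4%). For HN vs MN at S2 the edgeR count was 0 of 30 (background 0.018%), with 7 at an unadjusted p below 0.05 (23.3%, against 18.4%), 3 of 40 called by DESeq2 (7.5%, against 6.4%) and 4 without overlap (13.3%, against 26.4%). The summed leaf-marker level of the 3 MN S2 libraries, 87110 to 93050 FPKM, lay above that of every LN S2 library (42080 to 64690 FPKM) and HN S2 library (37840 to 54210 FPKM). At an unadjusted p below 0.05 stood 32 of 68 tested leaf genes in LN vs MN and 40 of 67 in HN vs MN, with median log2 differences of -0.80 and -1.34. The 4 floral genes did not overlap either, with sums of 21.1 to 22.9 FPKM in MN S2, 42.2 to 46.3 FPKM in LN S2 and 29.2 to 37.3 FPKM in HN S2. The part of these shifts in the S2 differences was not tested.

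At S3, edgeR called 0 of 32 members in LN vs MN (background 0%), with 3 at an unadjusted p below 0.05 (9.38%, against 4.69%), 0 of 35 called by DESeq2 (background 0.831%) and 3 without overlap (9.38%, against 11.4%). In HN vs MN at S3 the count by edgeR was 0 of 33 (background 0%), but 11 had an unadjusted p below 0.05 (33.3%, against 20.3%), DESeq2 called 7 of 38 (18.4%, against 8.32%), and 11 did not overlap (33.3%, against 29.3%), 6 of them higher and 5 lower in HN. This was the comparison with the most members apart, in both directions, but also the one with the largest share of all tested genes apart (29.3%). By overlap the members thus stood near genes in general.

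From S1 to S3, edgeR called 0 of 30 members in LN (background 0%), 0 of 31 in MN (background 0%) and 0 of 33 in HN (background 2.2%). An unadjusted p below 0.05 was reached by 3 members in LN (10%, against 7.31%), 6 in MN (19.4%, against 8.24%), all of them higher at S3, and 6 in HN (18.2%, against 20.5%). DESeq2 called 1 of 38 in LN (2.63%, against 2.31%), 4 of 36 in MN (11.1%, against 2.87%) and 3 of 39 in HN (7.69%, against 9.63%). The S1 and S3 libraries did not overlap for 3 members in LN (10%, against 14.6%), 6 in MN (19.4%, against 14.9%) and 8 in HN (24.2%, against 28.2%). The shares stood near the background in LN and HN. In MN those at an unadjusted p and by DESeq2 stood above it, while the overlap share (19.4%, against 14.9%) was near it. Of 65 tested leaf genes, edgeR called 3 lower at S3 in HN (4.62%), with a median log2 difference of -0.53 over the list, and their part in the HN differences was not tested.

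**Figure D2:**
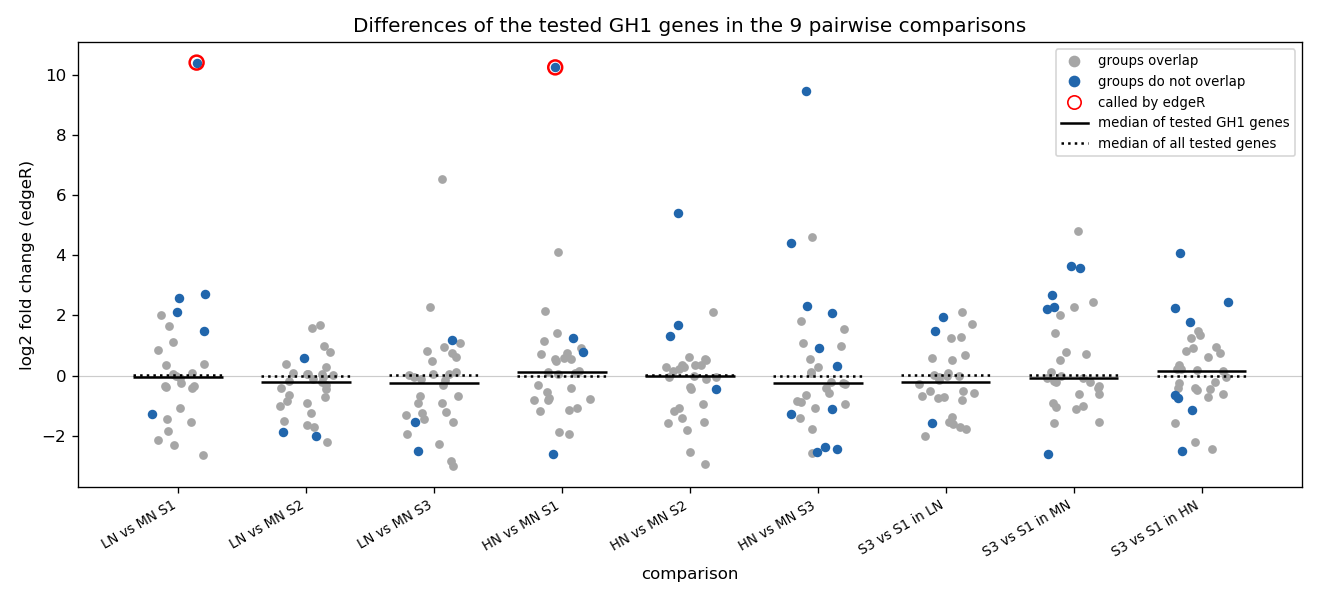
Log2 fold change from edgeR (vertical axis) of each tested GH1 gene in the 9 pairwise comparisons (horizontal axis); blue points are genes whose 3 and 3 libraries do not overlap in FPKM, red rings mark calls, and lines give the median of the tested GH1 genes (solid) and of all tested genes (dotted). The ringed points at 10.42 and 10.26 are the assembled furostanol glucosidase gene against MN S1, and the medians stay between -0.26 and 0.15.

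Over all 27 libraries, 6 of 43 tested members differed among the 9 groups in edgeR (14%, against 15.9% of all genes) and 15 of 45 in DESeq2 (33.3%, against 36.7%), so members were called about as often as genes in general. The 6 were Ebr04G051020 (adjusted p = 0.0035), Ebr06G031560 (0.00646), Ebr01G005780 (0.0242), Ebr06G040040 (0.0311), Ebr03G022730 (0.037) and the assembled furostanol glucosidase gene (0.0386), adjusted p from edgeR in each case. The first 2 were called under all 31 alternative settings of the analysis, Ebr01G005780 under 30, Ebr06G040040 under 26, Ebr03G022730 under 18 and the assembled gene under 14.

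**Figure D3:**
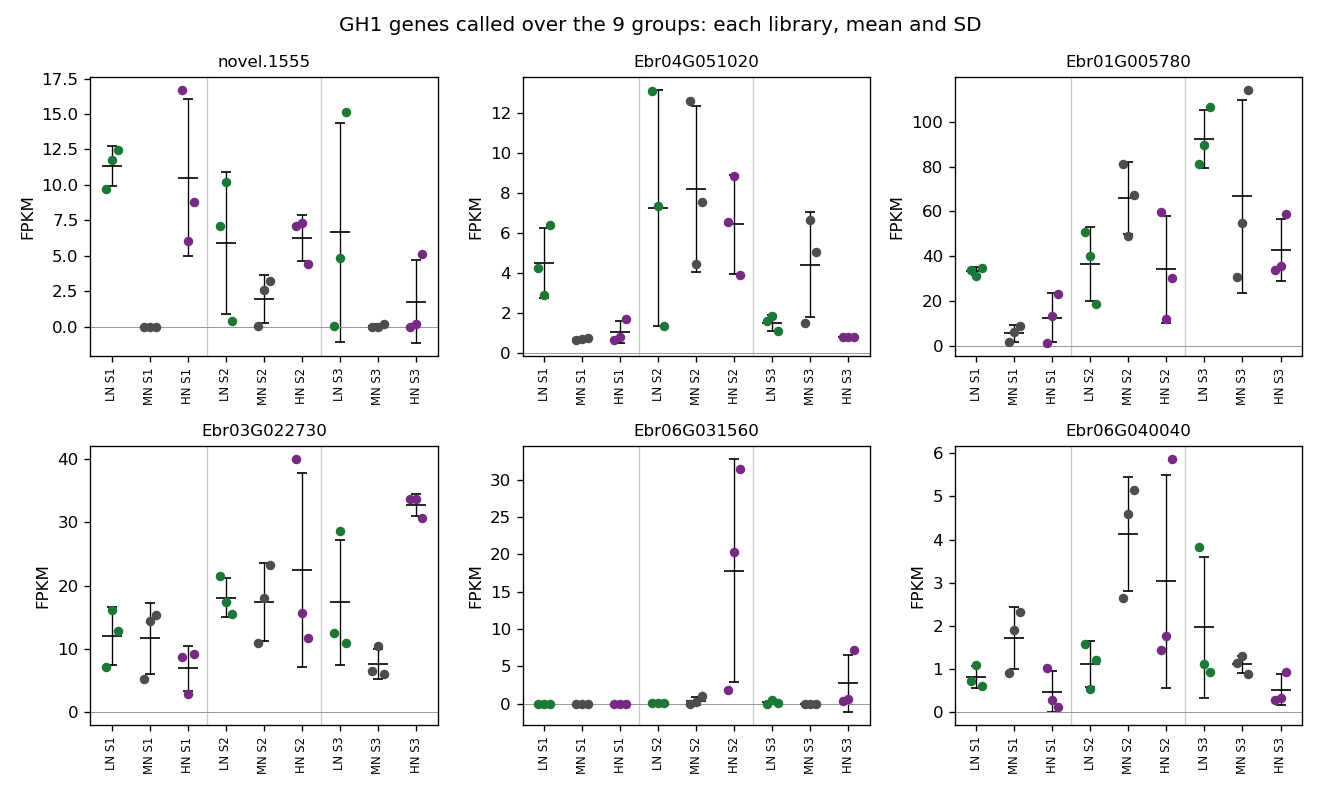
FPKM (vertical axes, linear) of the 6 GH1 genes called over the 9 groups, with each library as a point (LN green, MN grey, HN purple), the mean as a bar and the SD of 3 libraries as whiskers. Ebr06G031560 rises well above the rest only in HN S2 B, HN S2 C and HN S3 C. Ebr01G005780 is lowest in MN S1 and HN S1, and Ebr04G051020 is lowest in MN S1, HN S1 and HN S3.

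Among the furostanol glucosidase matches, the only assembled one (chromosome 1, 210050004 to 210112164, minus strand, gene length 3727 bases) was present in every LN and HN library at S1 and all but absent from MN. At S1 its level was 9.72, 11.8 and 12.5 FPKM in LN A, B and C, 16.7, 6.05 and 8.78 FPKM in HN A, B and C, and 0, 0 and 0.0167 FPKM in MN A, B and C. Neither the LN nor the HN libraries overlapped with MN. The MN value rests on 1 read in all, against 2021 reads in LN and 1587 in HN, so the pooled ratio was 1920 for LN (95% exact interval 344 to 75900) and 1570 for HN (281 to 62000), intervals that cover counting error only. The fitted log2 fold changes, 10.42 (SE 0.58, edgeR adjusted p = 0.0114) and 10.26 (SE 0.82, edgeR adjusted p = 0.0118), depend on the prior count added to the zeros. Without LN S1 A, LN S1 B, MN S1 B or MN S1 C the first was no longer called, and without HN S1 C or any 1 of the MN S1 libraries neither was the second. Both calls were also lost with a replicate block and in the fit of all 27 libraries, and over the 13 alternatives the adjusted p of the first ran from 1.09e-14 to 0.307 and that of the second from 4.72e-13 to 0.212.

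At later stages this assembled gene was uneven within groups. At S2 it stood at 7.12, 10.2 and 0.446 FPKM in LN A, B and C, at 0.0496, 2.61 and 3.23 FPKM in MN, and at 7.09, 7.34 and 4.42 FPKM in HN, where HN lay above MN without overlap. At S3 the values were 0.0311, 4.86 and 15.1 FPKM in LN, 0, 0 and 0.209 FPKM in MN, and 0, 0.176 and 5.13 FPKM in HN. The S3 groups overlapped, since LN S3 A, HN S3 A and HN S3 B were as empty as the MN libraries. Averaged over the stages in the 27-library fit, LN exceeded MN by 6.20 on the log2 scale (SE 1.19, edgeR adjusted p = 0.042) and HN exceeded MN by 5.54 (SE 1.17, edgeR adjusted p = 0.017). The HN difference was called under all 31 alternatives and the LN difference under 10, with adjusted p from 2.9e-06 to 0.114. Over the alternatives the HN difference ran from 4.09 without HN S3 C to 7.24 without MN S3 C. Both averages include MN S1, where the gene had 1 read in all, so their size rests partly on that read.

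Its gene model spans 2 other members, Ebr01G024490 on the same strand and an assembled beta-glucosidase 13 match (210051099 to 210084291) on the opposite strand, while Ebr01G024480 lies beside it. No source used here says whether the counting used strand, so reads in the shared stretches cannot be assigned with certainty. At S1 Ebr01G024490 stood at 5.19, 2.76 and 0.387 FPKM in LN and at 0, 1.22 and 2.48 FPKM in MN, with overlap. The opposite-strand gene stood at 0.389, 1.78 and 1.8 FPKM in LN S1, at 0.355, 0.042 and 0 FPKM in MN S1, and at 0.416, 0.0447 and 0.043 FPKM in HN S1. At S2 it stood at 2.03, 2.15 and 0.159 FPKM in LN, 0.357, 0.825 and 1.32 FPKM in MN, and 0.303, 0.168 and 0.137 FPKM in HN. The libraries of LN S1, LN S2 and MN S2 stood in the same order for it and for the longer gene, and HN S1 A was the highest of its group for both. The order differed in MN S1, HN S2, LN S3 and HN S3, and between HN S1 B and C. In MN S3, library C was the highest for both genes. How far shared reads set these levels was not tested. These neighbours were picked for their position after their values were known.

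A second pair of furostanol glucosidase matches, Ebr04G050990 and Ebr04G051020, lies on chromosome 4 with a gap of 443 kb, and both were lower in MN S1 than in LN S1. Ebr04G050990 measured 183, 104 and 73.9 FPKM in LN S1 A, B and C, 31, 24.2 and 28.8 FPKM in MN S1, and 22, 26.3 and 93.2 FPKM in HN S1. Ebr04G051020 measured 4.23, 2.89 and 6.37 FPKM in LN S1, 0.636, 0.67 and 0.73 FPKM in MN S1, and 0.652, 0.763 and 1.66 FPKM in HN S1. For both genes LN S1 did not overlap with MN S1, and HN S1 C was the highest library of its group. The LN vs MN differences at S1, 2.10 (SE 0.36) and 2.71 (SE 0.47) on the log2 scale, did not pass in edgeR (adjusted p = 0.155 and 0.157) and passed in DESeq2 (adjusted p = 5.13e-05 and 0.000364), as the only one of 13 alternatives for each, whose adjusted p went up to 0.643.

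By S2 the pair had no such gap between treatments, and at S3 the order had changed. Ebr04G051020 stood at 1.58, 1.86 and 1.06 FPKM in LN S3, at 1.49, 6.62 and 5.06 FPKM in MN S3, and at 0.763, 0.769 and 0.759 FPKM in HN S3. All HN S3 libraries therefore lay below all MN S3 libraries, and LN S3 lay below LN S1 while MN S3 lay above MN S1. The HN vs MN difference at S3 did not pass in edgeR (adjusted p = 0.136). It passed in DESeq2 (log2 difference -2.53, adjusted p = 0.0073), the only 1 of 13 alternatives to call it. From S1 to S3 Ebr04G051020 fell by 1.58 in LN (SE 0.49, edgeR unadjusted p = 0.0168, adjusted p = 0.532). In MN it was higher by 2.69 (SE 0.65, edgeR unadjusted p = 0.00455, adjusted p = 0.313). Neither change passed in edgeR, while DESeq2 called the one in MN (adjusted p = 0.0139) and not the one in LN. The test of the difference between these changes gave -4.27 on the log2 scale (SE 0.92, edgeR unadjusted p = 0.000136, adjusted p = 0.194). That adjusted p ranged from 0.000916 with DESeq2 to 0.476 over 31 alternatives, and it passed in 2 of them, the other being the fit without MN S3 A (0.0449). Its neighbour Ebr04G050990 measured 60.7, 147 and 177 FPKM in MN S3 and 50.4, 55.5 and 55.4 FPKM in HN S3, again without overlap (log2 difference -1.27, SE 0.38, edgeR adjusted p = 0.162, DESeq2 adjusted p = 0.0485). Its S3 vs S1 difference in MN was 2.20 (SE 0.41, edgeR adjusted p = 0.247, DESeq2 adjusted p = 0.000224).

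On an unplaced contig, Ebr0G014330, a short furostanol glucosidase match of 693 bases, swung between absence and about 30 FPKM. It had no read in 8 libraries, among them all 3 of MN S1, and it stood at 2.76, 30.4 and 31.3 FPKM in MN S2, 22.2, 25.5 and 30.6 FPKM in HN S2, 0.502, 34.2 and 0.416 FPKM in LN S3, 0, 2.2 and 0 FPKM in MN S3, and 16.2, 19.1 and 12.6 FPKM in HN S3. HN S3 thus lay above MN S3 in every library, by 4.43 on the log2 scale (SE 1.51, edgeR adjusted p = 0.187, DESeq2 adjusted p = 0.0157). Without MN S3 B, the only MN S3 library with reads of it, the edgeR call was made (adjusted p = 0.0321). This gene was chosen after its values were seen. Ebr06G037010, a further match of this kind, stood at 2.33, 1.19 and 1.11 FPKM in LN S3, below the 5.46, 4.88 and 3.16 FPKM of MN S3, and HN S3 (1.84, 1.88 and 2.61 FPKM) lay below MN S3 too. Neither the LN nor the HN difference from MN at S3 passed, with log2 differences of -1.53 (SE 0.48, edgeR adjusted p = 0.968) and -1.11 (SE 0.37, edgeR adjusted p = 0.179).

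Of the numbered beta-glucosidases, Ebr01G005780 (match to Arabidopsis beta-glucosidase 11) showed the clearest course over time. At S1 it measured 33.9, 31.1 and 34.7 FPKM in LN A, B and C, 1.54, 6.08 and 8.91 FPKM in MN, and 1.07, 13.2 and 23.2 FPKM in HN. At S3 it measured 81.2, 89.6 and 107 FPKM in LN, 30.7, 54.9 and 114 FPKM in MN, and 33.6, 35.7 and 58.7 FPKM in HN. Every S3 library lay above every S1 library of the same treatment, and at S1 LN lay above MN and HN without overlap. Averaged over the treatments, S3 exceeded S1 by 2.30 on the log2 scale (SE 0.43, edgeR adjusted p = 0.00982), a call kept under all 31 alternatives (adjusted p at most 0.0268). This was 1 of 43 members called (2.33%, against 2.18% of all genes), and DESeq2 called 5 of 45 (11.1%, against 6.24%). Within treatments none of the 3 differences passed in edgeR, with 1.48 in LN (SE 0.20, adjusted p = 0.169), 3.59 in MN (SE 0.75, adjusted p = 0.271) and 1.79 in HN (SE 0.88, adjusted p = 0.308). DESeq2 called those in LN (adjusted p = 1.18e-05) and MN (adjusted p = 3.01e-05) but not the one in HN. At S2 it stood at 50.9, 40 and 18.5 FPKM in LN, 81, 49 and 67.5 FPKM in MN and 59.7, 12 and 30.4 FPKM in HN. The lead of LN over MN at S1, 2.58 on the log2 scale (SE 0.58, edgeR adjusted p = 0.229, DESeq2 adjusted p = 0.000879), was therefore not seen at S2, where MN was the highest group apart from an overlap of MN B with LN A and HN A.

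Ebr06G031560, a match to rice beta-glucosidase 24, was on average highest in HN leaves from S2 on. All 9 libraries of S1 and all 3 of MN S3 had no read. HN S2 A, B and C measured 1.81, 20.3 and 31.5 FPKM and HN S3 A, B and C measured 0.325, 0.671 and 7.18 FPKM, against 0, 0.231 and 1.02 FPKM in MN S2 and at most 0.453 FPKM in any LN library. HN lay above MN without overlap at both stages. Over the pooled reads HN S2 exceeded MN S2 51.5-fold (95% exact interval 36.9 to 74.1, counting error only). With the floor of 3 reads over a group without reads, HN S3 was at least 90.3-fold higher than MN S3, and HN S2 at least 574-fold higher than HN S1. Single libraries set these values, as checked after they were seen. HN S3 C held 244 of the 275 reads of HN S3, and without it the bound was 14.9-fold. MN S2 C held 29 of the 35 reads of MN S2, and without it the HN S2 to MN S2 ratio was 201 (92.2 to 549). HN S2 C held 1156 of the 1822 reads of HN S2, and without it the bound against HN S1 was 337-fold. The pairwise HN vs MN test at S2 did not pass in edgeR (log2 difference 5.40, SE 1.53, adjusted p = 0.157) and passed in DESeq2 (adjusted p = 0.0013), and the averaged contrasts of edgeR give no usable value for it because whole groups are at 0.

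The putative beta-glucosidase 41 match (Arabidopsis), Ebr03G022730, was evenly high in HN at S3. It measured 33.8, 33.7 and 30.8 FPKM in HN S3 A, B and C, 6.52, 10.4 and 6.05 FPKM in MN S3 and 12.5, 28.7 and 10.9 FPKM in LN S3. At S1 it measured 8.67, 2.88 and 9.18 FPKM in HN, 5.27, 14.4 and 15.3 FPKM in MN and 7.13, 16.2 and 12.9 FPKM in LN. All HN S3 libraries lay above all MN S3 and all HN S1 libraries. HN exceeded MN at S3 by 2.07 on the log2 scale (SE 0.26, edgeR adjusted p = 0.0986), and HN S3 exceeded HN S1 by 2.26 (SE 0.43, edgeR adjusted p = 0.0515). Neither difference passed in edgeR, whereas DESeq2 called both (adjusted p = 1.59e-07 and 5.56e-05); 5 and 6 of the 13 alternatives made the calls, with adjusted p up to 0.5 and 0.238. Without MN S3 B edgeR called the first (adjusted p = 0.0253), and without HN S1 A the second (adjusted p = 0.0436). The HN effect at S3 minus that at S1 was 2.88 (SE 0.72, edgeR adjusted p = 0.117, DESeq2 adjusted p = 0.00951). HN S3 A and B are the close pair named above.

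The highest GH1 gene, Ebr03G066950, matched rice beta-glucosidase 12, an enzyme that in rice cleaves short cell wall sugars and a jasmonate-related glucoside. Its level was 58.9, 53.7 and 204 FPKM in LN S2 A, B and C, below the 214, 614 and 465 FPKM of MN S2, and 155, 123 and 296 FPKM in HN S2. LN S2 and MN S2 did not overlap, but the log2 difference of -2.01 (SE 0.67) did not pass in edgeR (adjusted p = 0.307). Over all 27 libraries it ranged from 53.7 to 614 FPKM, an 11.4-fold span.

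Beta-glucosidase 18 of rice, which in that species cleaves monolignol glucosides, was the match of 12 members, 7 of them above 1 FPKM on average, and their levels went different ways. On chromosome 3 Ebr03G017880 and Ebr03G017910 lie 268 kb apart. Ebr03G017880 measured 70.9, 33.2 and 18.8 FPKM in MN S1 A, B and C, 6.17, 11.1 and 3 FPKM in HN S1 and 21.9, 17.3 and 5.41 FPKM in LN S1. HN S1 lay below MN S1 without overlap, with a log2 difference of -2.63 (SE 0.64) that edgeR did not call (adjusted p = 0.215) and DESeq2 did (adjusted p = 0.00148). Its neighbour Ebr03G017910 measured 12.8, 125 and 123 FPKM in MN S1 and 218, 123 and 58.1 FPKM in HN S1, with overlap. The lowest MN S1 library of Ebr03G017910, A, was thus the highest of Ebr03G017880. Ebr03G017910 spanned 28.8-fold over the libraries, from 7.56 FPKM in MN S3 C to 218 FPKM in HN S1 A. In HN vs MN at S3 it was called by edgeR only without MN S3 B (log2 3.64, adjusted p = 0.0422), where MN S3 A, B and C stood at 15.4, 97.6 and 7.56 FPKM and HN S3 at 167, 171 and 95.5 FPKM.

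Ebr03G015440 and Ebr03G038430, on distant parts of chromosome 3, also match rice beta-glucosidase 18 and peaked in the same 2 libraries. Ebr03G015440 reached 14.7 FPKM in LN S1 C and 16.3 FPKM in MN S2 B, and Ebr03G038430 reached 12.5 and 9.9 FPKM there. In the other 25 libraries neither exceeded 4.15 FPKM. Without sequences it cannot be said whether reads are shared between these copies. Ebr03G015440 was lower at S3 than at S1 in MN without overlap, at 0.187, 0.599 and 0 FPKM against 1.68, 2.52 and 0.721 FPKM (log2 difference -2.63, SE 1.25, edgeR adjusted p = 0.664). Ebr03G038430 was named after its values were seen. A further, assembled match on chromosome 1 (492581482 to 492620652, plus strand, 0.103 kb after the coniferin glucosidase match) measured 0.705, 0.737 and 1.87 FPKM in HN S3 and 5.4, 2.41 and 9.47 FPKM in MN S3, with no overlap (log2 difference -2.39, SE 0.63, edgeR adjusted p = 0.143, DESeq2 adjusted p = 0.00572). At S1 it was lower in LN (1.46, 2.43 and 0.407 FPKM) than in MN (2.81, 4.4 and 3.3 FPKM), again without overlap and without passing (log2 difference -1.29, SE 0.61, edgeR adjusted p = 0.623).

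On chromosome 1 between 78812944 and 79912891, 4 members shared several of their highest libraries. They are Ebr01G008860 (furostanol glucosidase match), Ebr01G008900 and Ebr01G008960 (beta-glucosidase 13 matches of rice and Arabidopsis) and Ebr01G008980 (raucaffricine glucosidase match), and they were put together after their values were seen. MN S1 B, MN S1 C, HN S1 B and MN S3 B were among the 6 highest libraries of all 4. No LN library was among the 6 highest of all 4, though LN S1 C and LN S2 B were among those of Ebr01G008960 (75.4 and 62 FPKM). The sharing was not complete, since HN S3 A and B were high in Ebr01G008980 but held only 15.7 and 15.1 FPKM of Ebr01G008960. Ebr01G008980 measured 156, 459 and 993 FPKM in MN S1 A, B and C, 26.3, 85.3 and 216 FPKM in LN S1, 125, 256 and 43.7 FPKM in HN S1, 55, 477 and 12.9 FPKM in MN S3, and 552, 472 and 151 FPKM in HN S3. MN S3 C was thus the lowest of all 27 libraries and MN S3 B was far above it, and MN and HN overlapped at both stages. Ebr01G008900 measured 29.7, 289 and 4.33 FPKM, Ebr01G008860 measured 32, 362 and 22.1 FPKM and Ebr01G008960 measured 22.3, 262 and 5.7 FPKM in the same MN S3 libraries. The LN vs MN difference at S1, with overlapping groups, was -2.31 for Ebr01G008980 (SE 0.90, edgeR adjusted p = 0.531) and -2.64 for Ebr01G008900 (SE 1.07, edgeR adjusted p = 0.554). Ebr01G008850, which lies 63.6 kb from Ebr01G008860 and has the same match, did not share these peaks and stayed between 3.78 and 13.2 FPKM in all 27 libraries.

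These 4 genes set most of the swing of the summed GH1 level. The sum over all 76 members was 1686 ± 687 FPKM in MN S1, 898 ± 161 in LN S1 and 977 ± 408 in HN S1 (mean ± SD, n = 3 throughout). At S2 it was 1193 ± 41.1 FPKM in MN, 739 ± 264 in LN and 876 ± 80.3 in HN, and at S3 it was 1202 ± 746 in MN, 861 ± 314 in LN and 1351 ± 455 in HN. Without the 4 genes the S1 means were 657 ± 125 FPKM in MN, 686 ± 128 in LN and 559 ± 83.2 in HN, and the S3 means were 677 ± 20.5, 661 ± 312 and 768 ± 165. The lead of MN at S1 was therefore not seen in the other 72 members, and the 4 genes took 78.3% of the GH1 level in MN S1 C and 5.28% in MN S2 B. At S2 the other 72 members averaged highest in MN, with 985 ± 135 FPKM against 594 ± 153 in LN and 756 ± 44.3 in HN. The 3 MN S2 values of that remainder, 832, 1085 and 1039 FPKM, lay above those of LN S2 (684, 681 and 418) and HN S2 (769, 706 and 791). That S2 lead lay in Ebr03G066950, which averaged 431 ± 202 FPKM in MN S2, 105.5 ± 85.1 in LN S2 and 191 ± 92 in HN S2. Without it the remaining 71 members summed to 554 ± 75.3 FPKM in MN S2, 489 ± 238 in LN S2 and 564 ± 61.7 in HN S2, so that MN was no longer the highest. No p is given for these sums, which were formed over genes chosen with the results known.

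**Figure D4:**
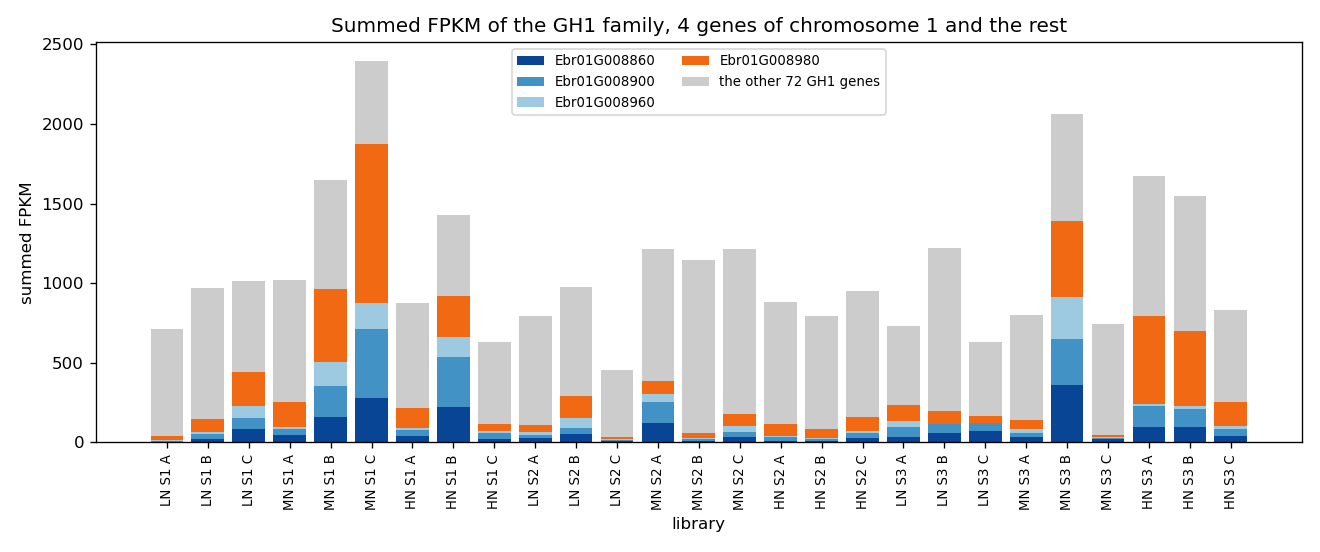
Summed FPKM (vertical axis, from 0) of the GH1 family in each of the 27 libraries, stacked into 4 genes of chromosome 1 (blue shades and orange) and the other 72 members (grey). The grey part runs from 418 FPKM in LN S2 C to 1085 FPKM in MN S2 B, whereas the 4 genes run from 34.9 FPKM in LN S2 C to 1872 FPKM in MN S1 C.

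Members with steady levels were few. Among the 22 with reads in every library, the highest library exceeded the lowest by a median of 31.4-fold, 14 spanned over 20-fold, and 2 stayed under 4-fold, namely SFR2 (Ebr02G005060, 3.11-fold) and Ebr01G008850 (3.49-fold, named after its values were seen). SFR2 measured 37.1, 48.9 and 33.1 FPKM in LN S2, above the 27.6, 20.9 and 31.5 FPKM of MN S2 without overlap (log2 difference 0.57, SE 0.23, edgeR adjusted p = 0.37). It measured 20, 15.7 and 25.2 FPKM in HN S3 and 37.6, 26.1 and 33.7 FPKM in HN S1, lower at S3 in every library (log2 difference -0.65, SE 0.25, edgeR adjusted p = 0.214). Both differences were under 2-fold and neither passed.

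Ebr02G031430, matched to rice beta-glucosidase 4, stood on different sides of MN at different stages. HN measured 49, 92.6 and 49.9 FPKM at S1 against 14.2, 47.7 and 47.8 FPKM in MN, and 42, 38.3 and 30.9 FPKM at S3 against 18.7, 28 and 11 FPKM in MN. At S2 HN, at 36, 37.1 and 36.6 FPKM, lay below the 40.7, 57.7 and 49.9 FPKM of MN. None of the 3 comparisons overlapped and none passed, with log2 differences of 0.77 (SE 0.50, edgeR adjusted p = 0.768), -0.45 (SE 0.16, adjusted p = 0.231) and 0.93 (SE 0.35, adjusted p = 0.214). The HN effect at S2 minus that at S1 was -1.19 (SE 0.64, edgeR adjusted p = 0.432).

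Ebr06G040040, one of the purple acid phosphatase matches, was on average highest in MN at S2. It measured 2.64, 4.6 and 5.14 FPKM in MN S2, 1.59, 0.537 and 1.2 FPKM in LN S2, and 1.45, 1.77 and 5.87 FPKM in HN S2. LN S2 lay below MN S2 without overlap (log2 difference -1.89, SE 0.50, edgeR adjusted p = 0.227, DESeq2 adjusted p = 0.0231). At S3 it measured 0.296, 0.336 and 0.937 FPKM in HN and 1.14, 1.3 and 0.893 FPKM in MN, with HN S3 C inside the MN range.

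Averaged over stages, edgeR called 1 of 43 members in LN vs MN (2.33%, against 0.14% of all genes) and 1 in HN vs MN (2.33%, against 2.48%), the assembled furostanol glucosidase gene both times, and DESeq2 called 1 of 45 (2.22%, against 2.09%) and 4 of 45 (8.89%, against 6.53%). Of the 43 members, 7 had at least 1 group without any read, and the averaged contrasts are unreliable for those. For a change of the difference from MN between stages, edgeR called 0 of 43 members for LN from S1 to S3 (background 0.00699%), LN from S1 to S2 (0.0769%), HN from S1 to S3 (0.0839%) and HN from S1 to S2 (0.157%). At an unadjusted p below 0.05 the counts were 4 (9.3%, against 9.29%), 6 (14%, against 11%), 7 (16.3%, against 14.6%) and 1 (2.33%, against 13.5%) in that order. DESeq2 called 2 of 42 (4.76%, against 1.46%), 2 of 40 (5%, against 2.29%), 2 of 42 (4.76%, against 3.34%) and 1 of 42 (2.38%, against 3.25%), namely Ebr04G050990 with Ebr04G051020, Ebr01G005780 with the assembled furostanol glucosidase gene, Ebr03G022730 with Ebr04G051020, and that assembled gene, in the same order.

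Other genes that make or cut glycosides gave few calls in the 9 pairwise comparisons. All 3 calls of edgeR fell in S3 vs S1 in HN, where 2.2% of all tested genes were called. They were 1 of 174 tested UDP-glycosyltransferases (0.575%), which build glucosides, 1 of 31 tested GH17 genes (3.23%) and 1 of 12 tested GH3 genes (8.33%). The hydroquinone glucosyltransferase match Ebr05G060940 was lower at S3 (log2 difference -2.48, SE 0.40, edgeR adjusted p = 0.036), whereas the glucan endo-beta-glucosidase match Ebr06G039410 of GH17 (without reads in the HN S1 libraries, edgeR adjusted p = 0.0441) and the xylosidase match Ebr05G035130 of GH3 (5.34, SE 0.89, edgeR adjusted p = 0.0395) were higher. These genes were named for their calls, after their values were seen. In that comparison 50 of the glycosyltransferases (28.7%), 10 of the GH17 genes (32.3%) and 5 of the GH3 genes (41.7%) had an unadjusted p below 0.05, against 20.5% of all genes.

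Per comparison, DESeq2 called 1 to 14 of the 367 glycosyltransferases higher and 2 to 16 lower, up to 7 of the 68 GH17 genes higher and 3 lower, and up to 4 of the 45 GH3 genes higher and 2 lower. For 36 GH9 genes (7 to 9 tested), 30 GH35 genes (11 to 17 tested) and 35 GH5 genes (6 to 8 tested) edgeR called 0, with 0 to 5, 0 to 6 and 1 to 2 per comparison at an unadjusted p below 0.05. DESeq2 called up to 5 GH9 genes higher and 1 lower, up to 4 GH35 genes higher and 0 lower, and up to 1 GH5 gene in each direction. The 11 genes of the cyanogenic route, of which 2 or 3 were tested, gave 0 calls in edgeR and in DESeq2, with at most 1 at an unadjusted p below 0.05. Over the 9 comparisons the shares of all genes ran from 4.69% to 20.5% at an unadjusted p below 0.05 in edgeR and from 0.831% to 9.63% called by DESeq2, so with so few genes tested these counts are a description only.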

How the data were processed

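The authors sequenced leaf RNA of 27 libraries (NEBNext Ultra kit per the labels) and, per the submitters' processing notes and the methods, aligned reads to a published E. pubescens genome with HISAT2 2.0.5, assembled further genes with StringTie 1.3.3b and counted with featureCounts 1.5.0-p3; no source used here names the strand setting or the version of that genome. The deposited count values are whole reads per gene, and the deposited FPKM values equal the count over gene length times 1 factor per library (within 0.00045% for members with at least 100 reads). The members, lists and rules were chosen with earlier results of these data known. Counts were fitted over the whole gene table with edgeR 4.0.16 (R 4.3.3; TMM, filterByExpr, quasi-likelihood F test, Benjamini-Hochberg), pairwise on 6 libraries and in 1 fit of 27 libraries with 18 residual degrees of freedom; the SE was taken as |log2 fold change| divided by sqrt(F). Calls needed an adjusted p below 0.05 and, for pairwise and averaged contrasts, a log2 fold change of at least 1 in size. Alternatives were DESeq2 1.42.0, RLE normalization, no filter on low counts, limma 3.58.1 on log2(FPKM + 1) and log2(FPKM + 0.1), the 27-library fit for the pairwise contrasts, a replicate block, no threshold on the fold change, and leaving out each library. The functions were tested on simulated data. Named genes were the assembled furostanol glucosidase gene, the 8 with the highest mean FPKM, all called members, the member with the smallest p in each direction of each comparison (for pairwise ones, among members whose groups do not overlap) and the 5 with the smallest p over the 9 groups. Marker lists checked the tissue; of 34 senescence genes 3 were tested, with 0 calls by edgeR and at most 1 at an unadjusted p below 0.05 (DESeq2 at most 1). Summaries and figures used Python 3.11.15, numpy 2.4.6, scipy 1.17.1, pandas 2.3.3 and matplotlib 3.10.9. No sequence table was used here, so none is printed.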

Additional observations from a re-analysis of the deposited data

Results flagged for a closer look

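For Ebr02G031430, the rice beta-glucosidase 4 match, the HN libraries lay below all MN libraries at S2 (log2 difference -0.45, edgeR adjusted p = 0.231) and above all of them at S3 (0.93, edgeR adjusted p = 0.214). Neither difference passed. The groups thus stood in opposite orders at the 2 stages, and the difference between S2 and S3 was not tested.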

How the results depend on the processing

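None of the 43 log2 fold changes of members followed through the alternatives changed sign. Of 315 differences of the named members over all comparisons, most of them not given above, 107 did, and 0 of these were called under any alternative. With DESeq2 the counts became 4 (LN vs MN S1), 1 (LN vs MN S2), 2 (HN vs MN S1), 3 (HN vs MN S2), 7 (HN vs MN S3), 1, 4 and 3 (S3 vs S1 in LN, MN and HN), 15 (9 groups), 4 (HN averaged), 5 (S3 minus S1 averaged), 2 and 2 (LN effects from S1 to S2 and to S3), and 1 and 2 (HN effects likewise). The 27-library fit gave 0 for LN and for HN vs MN at S1 and 1 for S3 vs S1 in HN. Both HN vs MN at S3 and S3 vs S1 in HN gave 1 without a filter on low counts, 1 with limma on log2(FPKM + 0.1) and 2 with log2(FPKM + 1). With the replicate block the LN and HN counts against MN at S1 fell from 1 to 0 and the count over 9 groups was 7; libraries of the same letter in different groups did not deviate together (mean correlation of deviations 0.024, range -0.26 to 0.28), so the letters are not treated as pairs. Leaving out 1 library gave 0 to 1 for LN vs MN S1 (0 without LN S1 A or B or MN S1 B or C) and for HN vs MN S1 (0 without HN S1 C or any MN S1 library), 0 to 3 for HN vs MN S3 (3 without MN S3 B), 0 to 1 for S3 vs S1 in HN (1 without HN S1 A, HN S1 C or HN S3 C), 3 to 10 over the 9 groups (3 without MN S1 B, MN S2 B, MN S2 C, HN S1 B or HN S3 B, 10 without LN S3 B), 0 to 1 for LN averaged (1 without LN S1 C, LN S2 C, MN S2 A, LN S3 A, HN S1 A, HN S3 A or HN S3 C), 1 to 3 for HN averaged (3 without HN S1 A), 1 to 2 for S3 minus S1 averaged (2 without LN S1 B, LN S3 B, LN S3 C or HN S1 A) and 0 to 1 for the LN effect from S1 to S3 (1 without MN S3 A); the other 8 counts stayed at 0. Without LN S1 C the member called for LN averaged was Ebr06G037010 (log2 difference -2.07, edgeR adjusted p = 0.0187), not the assembled furostanol glucosidase gene. A group reduced to 2 libraries is small, and the causes were not tested. The biological coefficient of variation of the pairwise fits was 0.52 to 0.656, and depth limits members with few reads.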
